A study of Rattus norvegicus with 16 samples.

Results

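Rag1, Dntt, Vpreb1, Igll1, Lef1, Myb, Cecr2 and Il7r, 8 genes used by the precursors of B cells, were followed in single cells of rat lumbar intervertebral discs. They were taken by their symbols from the 14930 genes listed in any of the 4 groups of libraries, and all 8 were listed in every one of the 16 libraries. Each of 8 male Sprague-Dawley rats, 8 weeks old at surgery, had discs L4-5 and L5-6 stabbed once with a 27-gauge needle (lumbar disc puncture, LDP), and its unpunctured discs L2-3 and L3-4 served as the control (CON). Rats 1 to 4 were killed at 2 weeks and rats 5 to 8 at 8 weeks after the puncture, which gave 4 CON and 4 LDP libraries at each time. A library is a pool of 2 discs of 1 rat, so the CON and LDP libraries of a number come from the same animal, no rat was left without surgery, and no library covers a disc by itself.

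B cells are made from progenitors that rearrange their immunoglobulin genes step by step, in the adult mainly in bone marrow. In the pro-B stage the RAG1 recombinase, with its partner RAG2, cuts the heavy chain locus and terminal transferase, the product of Dntt, adds untemplated bases at the joints. In the large pre-B stage the new heavy chain is paired with the surrogate light chain, made of the Vpreb1 and Igll1 products, and the cells divide under signals that include interleukin 7, whose receptor chain is encoded by Il7r. In the small pre-B stage the surrogate light chain is shut off and Rag1 is used again, this time for the light chain locus. Lef1 and Myb encode transcription factors of early lymphoid and blood progenitor cells, and Cecr2 encodes a bromodomain protein of chromatin remodelling complexes. The number of these genes found in the same cell therefore bears on its stage, although a gene with few molecules is often missed in a shallow cell.

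The promoters of Rag1, Dntt, Vpreb1 and Igll1 are shown because these are the 4 genes whose detection in the same cell is described further on. Each run is the 250 bases before the start of the gene in the RefSeq annotation of GRCr8, a later build than the rn6 that the submitters' processing notes name, and is written on the strand of the gene. Of the 8 genes, 7 had an entry, Vpreb1 under the symbol Vpreb1a, and Myb had none. Rag1 lies at chr3:108383185-108383434 on the minus strand, and Dntt lies at chr1:249805552-249805801, Vpreb1 at chr11:97630924-97631173 and Igll1 at chr11:97642937-97643186, all on the plus strand. Capitals mark the matches to 6 motifs searched on both strands.
Rag1: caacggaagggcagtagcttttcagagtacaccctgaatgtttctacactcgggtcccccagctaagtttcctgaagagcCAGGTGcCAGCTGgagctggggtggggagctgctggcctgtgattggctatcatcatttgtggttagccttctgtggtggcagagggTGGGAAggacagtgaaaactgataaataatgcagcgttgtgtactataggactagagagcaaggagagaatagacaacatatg
Dntt: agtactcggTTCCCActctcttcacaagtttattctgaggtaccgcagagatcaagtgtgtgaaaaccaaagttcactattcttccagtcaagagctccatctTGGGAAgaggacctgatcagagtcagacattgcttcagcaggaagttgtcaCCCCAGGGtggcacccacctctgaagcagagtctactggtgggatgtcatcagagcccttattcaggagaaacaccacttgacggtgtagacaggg
Vpreb1: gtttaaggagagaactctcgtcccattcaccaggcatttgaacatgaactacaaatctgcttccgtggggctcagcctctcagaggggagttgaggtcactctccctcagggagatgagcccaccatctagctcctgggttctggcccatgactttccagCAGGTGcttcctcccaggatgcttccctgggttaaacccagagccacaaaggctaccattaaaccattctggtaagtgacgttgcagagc
Igll1: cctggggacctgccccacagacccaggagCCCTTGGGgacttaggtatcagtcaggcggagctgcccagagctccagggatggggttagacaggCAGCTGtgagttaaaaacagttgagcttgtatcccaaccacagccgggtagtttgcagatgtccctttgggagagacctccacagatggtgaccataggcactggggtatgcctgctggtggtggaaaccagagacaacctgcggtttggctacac
The motifs were the full EBF1 site and its relaxed form CCCNNGGG, which every full site also contains, the E-boxes CAGCTG and CAGGTG, the TCF/LEF motif CTTTGA and the Ikaros motif TGGGAA. In Rag1 the E-boxes CAGGTG and CAGCTG stood next to each other, with their first bases 170 and 163 bases before the start, and an Ikaros motif stood 83 bases before it. Dntt held a relaxed EBF1 form 96 bases before its start and Ikaros motifs at 241 and 147 bases, Vpreb1 held CAGGTG at 90 bases, and Igll1 held a relaxed EBF1 form at 221 bases and CAGCTG at 156 bases. Of the other members with an entry, Il7r held CAGGTG at 224 bases, and Lef1 and Cecr2 held none of the 6. No member held the full EBF1 form or CTTTGA in this window. Among 33469 rat promoters of the same length, the full EBF1 site was found in 0.738%, and the other letters were more common, with CCCNNGGG in 10.8%, CAGCTG in 12.0%, CAGGTG in 15.9%, CTTTGA in 13.9% and TGGGAA in 22.1%.

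The 16 libraries held 149272 cells, from 2221 to 15918 cells each, with 17759809 to 85025591 UMIs (counted RNA molecules) each. The median cell of a library had 3861 to 8092 UMIs. The authors clustered each of the 4 groups apart and named the clusters, and their names are used here as IVD (intervertebral disc), endothelial, myeloid, lymphoid and unnamed cells, so a class need not hold the same cells in different groups. The lymphoid class held 8028 cells. It held 91 cells in CON1 and none in CON2, CON3 and CON4, and 0, 25, 2781 and 1406 cells in LDP1 to LDP4. At 8 weeks it held 635, 1590, 33 and 7 cells in CON5 to CON8 and 397, 191, 679 and 193 cells in LDP5 to LDP8. Levels in lymphoid cells are therefore given for the 9 libraries with at least 50 of them, of which CON1 is the sole control at 2 weeks. No pair of libraries shared more than 0.7204% of the smaller library's cell barcodes, and at most 2 shared barcodes were lymphoid in both.

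The lymphoid cells held markers of the B lineage. The paper lists Cd79b, Blnk, Ptprc and Myb as its marker genes for this class. The levels of Cd79b, Blnk and the member Myb in it are therefore no separate support for the label. Over the 12 libraries with any lymphoid cell, the mean level of Cd79b, a chain of the B cell receptor complex, was 381 to 1475 CPM (UMIs of the gene scaled to the total of its cell, as deposited), that of the adaptor Blnk was 409 to 875 CPM, and that of the transcription factor Ebf1 was 198 to 861 CPM. Rag2, the partner of Rag1, was at 25.9 to 119 CPM. The T cell genes Cd3e, Cd3d and Cd2 stayed at or below 4.07, 10.97 and 1.53 CPM where listed, and Cd3g reached 48.7 CPM. Of the progenitor genes, Cd34 was at 0 to 3.28 CPM. Precursors of T cells also use Rag1 and Dntt. The summed level of the 9 to 13 listed genes of the T list was 0 (CON8) to 187 CPM (LDP2) over the 12 libraries and 19.1 to 103 CPM in the 9 with at least 50 lymphoid cells, and in these 9 Lck, a kinase that some B cells also express, reached 41.6 CPM in LDP8.

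Libraries CON1 and LDP8 stood apart. In CON1 the lymphoid class was a small set of dividing cells, in which the proliferation gene Mki67 was at 3242 CPM, against 172 to 532 CPM in the other 8 libraries with at least 50 lymphoid cells, and Cd74, a chaperone of class II molecules, was at 32.3 CPM, against 428 to 1298 CPM. Only 10.6% of the Rag1-positive cells of CON1 were in its lymphoid class and 60.6% were in clusters without a name, whereas the lymphoid class held 76.3% to 95.6% of the Rag1-positive cells in the other 8. In LDP8 the 193 lymphoid cells held far more Dntt and Vpreb1 than those of any other library, as given below. Where leaving out rat 1 or rat 8 changes a result, the value without it is given.

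Among the named classes, Rag1, Dntt, Vpreb1, Igll1, Lef1, Myb and Cecr2 had their highest median level in lymphoid cells, and Il7r had it in myeloid cells. The classes were drawn by the authors from the same values, so the levels by class are a description. Rag1, the recombinase, was at 96.1 to 1561 CPM in lymphoid cells of the 11 libraries with at least 20 of them, against 0.0568 to 15.3 CPM in IVD cells and 0 to 20.4 CPM in endothelial cells. Dntt was at 0.962 to 229 CPM in lymphoid cells and at most 0.325 CPM in IVD cells, and Vpreb1 was at 5.40 to 217 CPM against at most 0.198 CPM. Igll1 was at 9.75 to 211 CPM in lymphoid cells and at most 0.744 CPM in IVD cells. With every cell thinned to 1000 UMIs, so that depth was equal, a UMI of Rag1 was found in 5.49% to 46.8% of lymphoid cells and in 0% to 1.08% of IVD cells, a class that should lack it. The highest IVD share was that of LDP3, the library with the most lymphoid cells, and it is the background that a share of Rag1-positive cells has to be read against.

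Among the other members, Il7r, Cecr2 and Lef1 were also found in other classes. Il7r was found in the myeloid class of every library with at least 20 such cells, at 65.6 to 546 CPM and in 5.19% to 32.4% of the cells at 1000 UMIs, and in lymphoid cells it was at 19.8 to 483 CPM. Over the 15 libraries its median level in myeloid cells was 291 CPM, and over the 11 libraries with lymphoid cells its median there was 54.1 CPM. A whole-library level of Il7r is therefore not a level of lymphoid cells. Cecr2 was found in the endothelial cells of all 12 libraries that hold at least 20 of them, at 4.22 to 23.9 CPM and in 0.298% to 3.64% of the cells at 1000 UMIs, and in IVD cells it was at 0.292 to 12.4 CPM. Lef1 was at 0.0391 to 4.61 CPM in IVD cells of all 16 libraries and reached 43.0 CPM in the endothelial cells of LDP6. Myb was at 0 to 5.24 CPM in IVD cells and at 156 to 552 CPM in lymphoid cells.

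Cells without a name held these genes in a few libraries. In CON1 their mean levels of Rag1 and Cecr2 were 299.5 and 254 CPM, in CON6 they were 377 and 283 CPM, and in LDP3 Cecr2 was at 421, Myb at 303 and Igll1 at 145 CPM. Of the 256 cells of LDP3 in which at least 2 of Rag1, Dntt, Vpreb1 and Igll1 were found with all UMIs, 185 were lymphoid, 54 had no name and 17 were IVD cells. In CON1 only 26 of 77 such cells were lymphoid, 34 had no name, 13 were myeloid and 4 were IVD cells. In CON1 these cells were thus spread over more classes than in LDP3.

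The question whether the puncture changed these genes was put first to whole libraries, as the mean CPM over all cells. This measure uses no class, but a change in the number of cells of a type and a change of RNA per cell cannot be told apart in it. The punctured discs were always lower in the spine than the control discs. Puncture and disc level therefore cannot be told apart in any comparison of LDP with CON. For the 7 genes other than Il7r, at 2 weeks the LDP libraries of rats 3 and 4 were high and those of rats 1 and 2 low, and among the controls only that of rat 1 was high. Il7r was higher in CON2 (5.90 CPM) than in LDP4 (5.28 CPM). At 8 weeks every LDP library was above the lowest 2 controls for Rag1, but the controls of rats 5 and 6 were above the LDP libraries of the same rats. None of the 8 genes passed the test at either time.

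**Figure D1:**
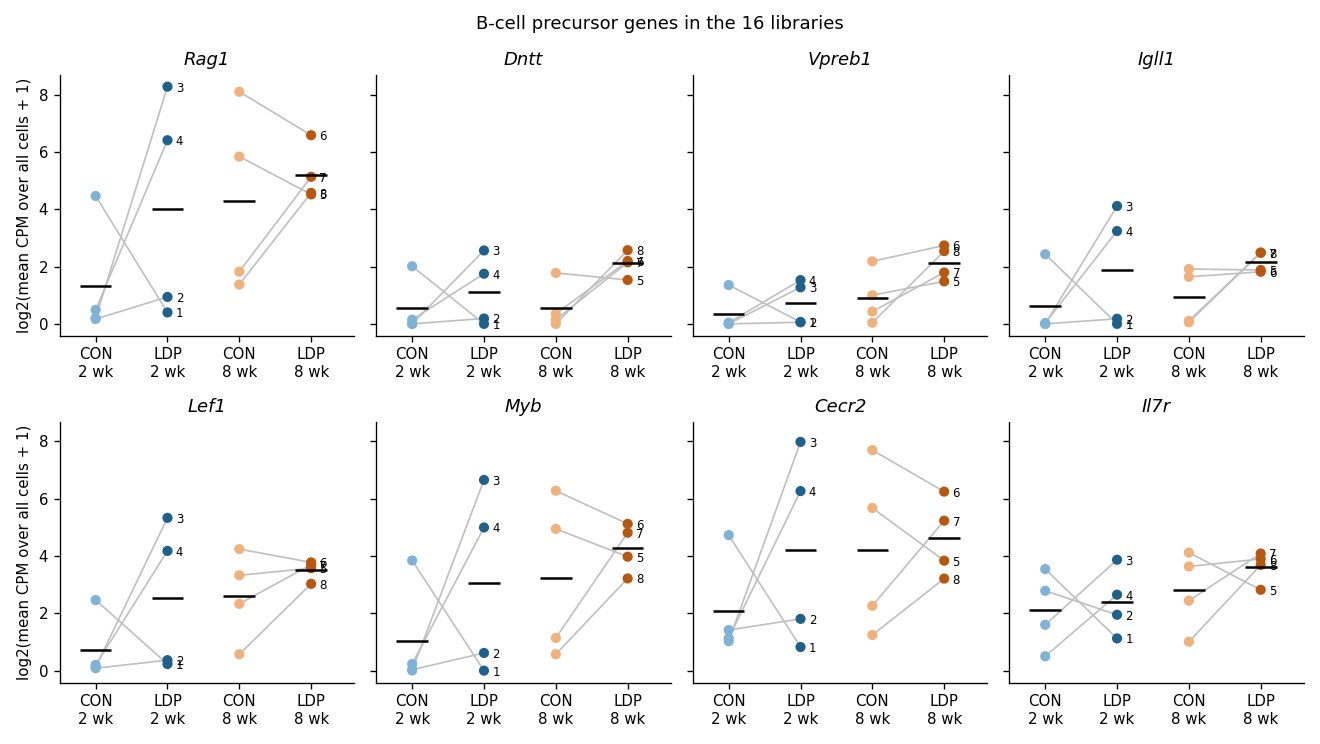
Level of each of the 8 genes in whole libraries, as log2(mean CPM over all cells + 1), in CON and LDP libraries at 2 and 8 weeks. Each number is a rat, a line joins the CON and LDP library of the same rat, and the black bar is the mean of the 4 log2 values of a group. At 2 weeks LDP lies under CON in rat 1 and above it in rats 3 and 4 for every gene, and at 8 weeks Dntt, Vpreb1 and Igll1 lie closer together in LDP than Rag1.

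Rag1 was at 21.0, 0.125, 0.152 and 0.401 CPM in CON1 to CON4 and at 0.318, 0.918, 309 and 83.8 CPM in LDP1 to LDP4. At 8 weeks it was at 56.2, 273, 2.54 and 1.59 CPM in CON5 to CON8 and at 21.9, 94.8, 34.0 and 22.8 CPM in LDP5 to LDP8. The groups overlapped at both times, and LDP was above CON in 3 of 4 rats at 2 weeks and in 2 of 4 at 8 weeks. The group means were 98.5 ± 146 CPM in LDP and 5.43 ± 10.4 CPM in CON at 2 weeks (SD, n = 4), and 43.4 ± 34.8 and 83.3 ± 129 CPM at 8 weeks. On the log2(mean CPM + 1) scale the paired difference was 2.67 (SE 1.72, adjusted p = 0.656 by limma) at 2 weeks and 0.92 (SE 1.72, adjusted p = 0.872 by limma) at 8 weeks. Leaving out a rat moved the former between 0.88 and 4.92 and the latter between 0.12 and 1.73.

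Dntt was at 3.03, 0, 0 and 0.107 CPM in CON1 to CON4 and at 0, 0.139, 4.90 and 2.36 CPM in LDP1 to LDP4, and then at 2.43, 0.278, 0.105 and 0 CPM in CON5 to CON8 and 1.89, 3.57, 3.43 and 4.95 CPM in LDP5 to LDP8. Vpreb1 was at 1.56, 0, 0 and 0.0302 CPM in CON1 to CON4, 0.0445, 0.0406, 1.42 and 1.88 CPM in LDP1 to LDP4, 1.00, 3.54, 0.347 and 0.0292 CPM in CON5 to CON8 and 1.80, 5.66, 2.46 and 4.81 CPM in LDP5 to LDP8. Igll1 was at 4.39, 0, 0 and 0.0215 CPM in CON1 to CON4, 0, 0.131, 16.3 and 8.44 CPM in LDP1 to LDP4, 2.77, 2.12, 0.0743 and 0.0405 CPM in CON5 to CON8 and 2.68, 2.53, 4.61 and 4.59 CPM in LDP5 to LDP8. In the 4 LDP libraries of 8 weeks these 3 genes were spread less widely than Rag1, and they were low in CON7 and CON8. Vpreb1 was above CON in 4 of 4 rats at 8 weeks, Dntt and Igll1 in 3 of 4 rats, and each in 3 of 4 rats at 2 weeks. The 8-week differences were 1.54 for Dntt (SE 0.67, adjusted p = 0.542 by limma), 1.22 for Vpreb1 (SE 0.46, adjusted p = 0.499) and 1.24 for Igll1 (SE 0.93, adjusted p = 0.680). At 2 weeks they were 0.59 for Dntt (SE 0.67, adjusted p = 0.793 by limma), 0.38 for Vpreb1 (SE 0.46, adjusted p = 0.811) and 1.27 for Igll1 (SE 0.93, adjusted p = 0.690). Without a rat the 2-week value ran from 0.013 to 0.94 for Vpreb1 and from 0.32 to 2.499 for Igll1. The 8-week value ran from 1.199 to 2.14 for Dntt, 0.80 to 1.47 for Vpreb1 and 0.84 to 1.66 for Igll1. Vpreb1 is uncertain, because its near-identical copy Vpreb2 is listed apart and reads of the pair can be split between them.

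At 2 weeks the transcription factor genes and Cecr2 were highest in the same 3 libraries as Rag1, LDP3, LDP4 and CON1. Myb was at 13.4, 0.0254, 0.0051 and 0.174 CPM in CON1 to CON4, 0, 0.535, 99.7 and 30.9 CPM in LDP1 to LDP4, 29.8, 76.5, 1.21 and 0.488 CPM in CON5 to CON8 and 14.7, 33.8, 27.1 and 8.31 CPM in LDP5 to LDP8. Lef1 ranged from 0.0610 to 4.52 CPM in CON and from 0.174 to 39.3 CPM in LDP at 2 weeks, and from 0.487 to 17.9 and 7.17 to 12.7 CPM at 8 weeks. Cecr2 ranged from 1.04 to 25.5 and 0.772 to 252 CPM at 2 weeks and from 1.37 to 206 and 8.27 to 74.9 CPM at 8 weeks. CON and LDP overlapped for each of them at both times. Il7r was at 0.415 to 10.7 CPM in CON and 1.18 to 13.6 CPM in LDP at 2 weeks, and 1.01 to 16.4 and 6.07 to 16 CPM at 8 weeks. At 2 weeks the differences were 1.81 for Lef1, 2.04 for Myb, 2.14 for Cecr2 and 0.29 for Il7r, with adjusted p from 0.629 to 0.921 by limma. At 8 weeks they were 0.90, 1.05, 0.41 and 0.82 in the same order, with adjusted p from 0.756 to 0.936 by limma. Leaving out a rat moved the 2-week value between 0.68 and 3.16 for Lef1, 0.50 and 3.997 for Myb, and 0.54 and 4.16 for Cecr2. The 8-week value moved between 0.38 and 1.36 for Lef1, 0.17 and 1.78 for Myb, and 0.20 and 1.53 for Il7r.

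None of 12199 tested genes passed the 5% false discovery rate at 2 weeks by limma (0%), and 1 passed at 8 weeks (0.0082%), so the test had few calls for any gene. At an unadjusted p under 0.05 by limma, 278 genes (2.28%) were higher and 841 (6.89%) lower in LDP at 2 weeks, with no member among them. Without rat 1, 685 genes (5.64%) were higher and 683 lower, and 7 of the 8 members were among the higher ones. The counts were 179 and 807 without rat 2 and 200 and 453 without rat 3, with no member among them. At 8 weeks 257 (2.11%) were higher and 857 (7.03%) lower, with Dntt and Vpreb1 among the higher ones. Without rat 7 or without rat 8, no member was among them, and without rat 5 the counts were 167 and 420. The excess of lower genes depended on the fit: edgeR with TMM had 673 higher and 552 lower at 2 weeks and 580 and 674 at 8 weeks, and DESeq2 had 799 and 665, and 732 and 677. All 8 members had a value above 0 at both times, against 41.0% of all genes at 2 weeks and 34.7% at 8 weeks, and their median difference was 1.54 and 0.98, against -0.06 and -0.10 over all genes. The size depended on the pseudocount and the tool: the median was 0.88 and 0.47 with a pseudocount of 5 CPM, 2.32 and 1.37 with 0.1 CPM, and 3.88 and 1.23 by edgeR with TMM. At 8 weeks the direction of Rag1, Myb and Cecr2 depended on the scale. Their mean CPM in LDP and CON was 43.4 and 83.3 for Rag1, 21.0 and 27.0 for Myb and 33.3 and 65.3 for Cecr2. For each of them LDP was above CON in 2 of 4 rats at that time. The paper had named Rag1, Lef1 and Myb as higher in LDP at both times, and Cecr2 and Il7r at 8 weeks. It compared cells within single rats, in libraries that are also used here. The shared direction of these genes is therefore no separate support. Across libraries Myb, Lef1, Cecr2 and Il7r followed the mean of Rag1, Dntt, Vpreb1 and Igll1 (r from 0.836 to 0.970), so the 8 genes are not 8 separate observations. DESeq2 on the summed counts recovered from the values called 140 genes (1.15%) at 2 weeks, with Igll1 as the only member (adjusted p = 0.0135), and 209 genes (1.71%) at 8 weeks with no member, while edgeR called 0 and 2 genes. The fitted size for Igll1, a log2 change of 8.28, is no usable fold, since CON2, CON3 and CON4 held 0, 0 and 1 of its UMIs and rat 1 went the other way, from 4.39 CPM in CON1 to 0 in LDP1. At an unadjusted p under 0.05 by DESeq2, 6 of the 8 members were among the genes higher in LDP at 2 weeks (6.55% of all genes) and 1 at 8 weeks (6%). The 2-week picture rested on single rats: without rat 3 the median of the 8 genes was 0.41 and 6 were above 0, and without rat 1 it was 2.83. At 8 weeks the median was 0.65 without rat 7 and 0.45 without rat 8, each with 7 genes above 0, and 1.59 without rat 5.

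Most other genes of the pathway had values above 0 as well. Of the 8 tested genes of the B lineage at all stages, all were above 0 at both times, with a median of 1.77 at 2 weeks and 0.69 at 8 weeks, and none passed the test. Examples at 2 weeks were Cd79b at 2.75 (SE 1.76) and Blnk at 2.18 (SE 1.64). Of 13 tested early B precursor genes, which include the 8 members, 11 were above 0 and 2 below at each time, with medians of 0.59 and 0.82. All 8 members were above 0, so the 2 below 0 were both among the few genes of this list that are no members. Among those that are no members, the difference for Rag2 was 0.99 (SE 0.75) at 2 weeks and 0.27 (SE 0.75) at 8 weeks, and for Kit, the stem cell factor receptor, -0.13 (SE 0.20) and 0.14 (SE 0.20). Erg, an ETS transcription factor that endothelial cells also express, was at -0.34 (SE 0.16) and -0.39 (SE 0.16). The 8 tested genes of later B cells, such as Cd37 at 1.65 and Cd74 at 0.79, were also above 0 at both times, with medians of 0.74 and 0.69. Of 22 early B transcription factor and signalling genes 17 were above 0 at 2 weeks and 13 at 8 weeks, with medians of 0.57 and 0.10. None of these lists had a called gene.

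Genes of other blood cells lay above or below 0 together as well. All 5 tested granulocyte precursor genes were above 0 at both times, with medians of 1.91 and 2.32, and their summed level ran from 1.58 CPM in CON2 to 6632 CPM in LDP7. The 8 erythroid genes were all above 0 at 2 weeks, with a median of 1.14, and all below 0 at 8 weeks, with a median of -1.001, and their summed level ran from 119 CPM in CON2 to 8411 CPM in CON5. Of 10 disc and endothelial genes 9 were below 0 at both times, with medians of -0.41 and -0.47. The part of these blood cells in the levels of the 8 genes was not tested. The change in the LDP difference from 2 to 8 weeks was -1.76 (SE 2.43) for Rag1, 0.96 (SE 0.95) for Dntt, 0.84 (SE 0.66) for Vpreb1 and -0.03 (SE 1.32) for Igll1, and no gene was called for it by limma (0%), with 35 higher (0.287%) and 59 lower (0.484%) at an unadjusted p under 0.05 and 0 called by edgeR or DESeq2. Without rat 1 the counts were 45 and 234 (1.93%), with Cecr2 (-3.75) among the lower ones, and without rat 5 they were 81 and 30.

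Within lymphoid cells, the order of the libraries for Rag1 was not that for Dntt, Vpreb1 or Igll1. Rag1 was at 96.1 CPM in CON1, 1561 in LDP3 and 690.1 in LDP4, and at 8 weeks at 692 in CON5, 1161 in CON6, 372 in LDP5, 1097 in LDP6, 483 in LDP7 and 1041 CPM in LDP8. Dntt was at 32.8, 21.4 and 19.0 CPM in CON1, LDP3 and LDP4 and at 30.9, 0.962, 32.1, 41.5, 49.3 and 229 CPM in CON5, CON6, LDP5, LDP6, LDP7 and LDP8. The library with the highest Rag1, LDP3, was thus among the low ones for Dntt, and in CON6, with the highest Rag1 of the 8-week libraries, Dntt was almost absent. LDP8 was high for both.

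**Figure D2:**
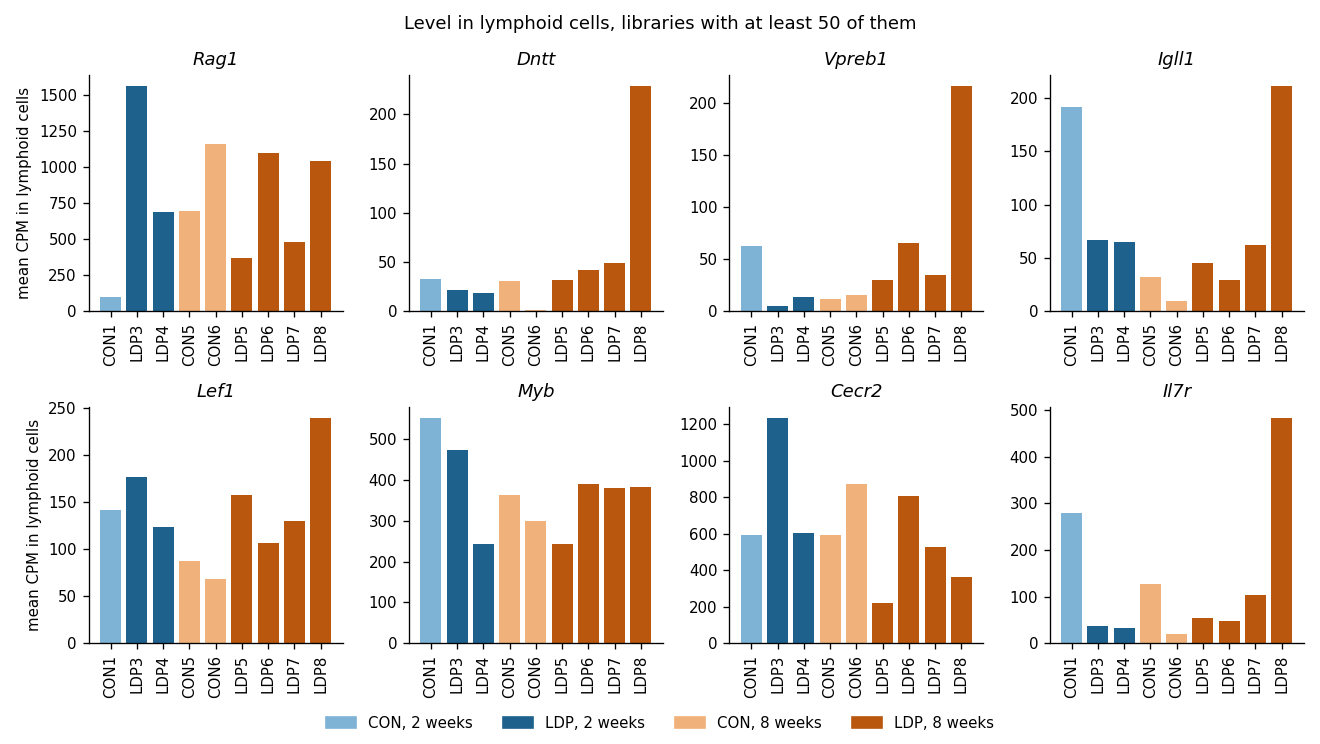
Mean CPM of each of the 8 genes over the lymphoid cells of the 9 libraries with at least 50 such cells. Each bar is 1 library, so the bars carry no error. LDP3 has the highest Rag1 bar (1561 CPM) and LDP8 the highest Dntt, Vpreb1, Igll1, Lef1 and Il7r bars (229, 217, 211, 240 and 483 CPM).

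Vpreb1 was at 62.6, 5.40 and 14.0 CPM in the lymphoid cells of CON1, LDP3 and LDP4 and at 11.7, 15.9, 29.8, 65.8, 34.6 and 217 CPM in CON5, CON6, LDP5, LDP6, LDP7 and LDP8. Igll1, the other part of the surrogate light chain, was at 192, 67.4 and 64.6 CPM and then at 32.0, 9.75, 45.0, 29.4, 61.8 and 211 CPM in the same order. Both were lowest in a library with high Rag1, Vpreb1 in LDP3 and Igll1 in CON6. Il7r was at 279, 37.1 and 31.7 CPM and then at 128, 19.8, 54.1, 47.4, 103 and 483 CPM in the same order. The range of Il7r from 19.8 to 483 CPM put CON6 and LDP8 at its ends, as for Dntt and Igll1. Lef1 (68.3 to 240 CPM), Myb (243 to 552 CPM) and Cecr2 (218 to 1234 CPM) spread less.

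Thinning all cells to 1000 UMIs kept the order of the 9 libraries for Rag1. Rag1 was found in 46.8% of the lymphoid cells of LDP3, 34.3% of LDP4 and 5.49% of CON1, and at 8 weeks in 24.9% (LDP5) to 46.3% (CON6). Dntt was found in 20.3% of the cells of LDP8 and in 0.129% to 3.85% of the cells of the other 8 libraries, and Vpreb1 in 18.7% against 0.831% to 6.42%. Igll1 was found in 23.1% of CON1 and 19.3% of LDP8, and in 1.07% to 6.33% of the other 7. Il7r was found in 31.0% of LDP8, 25.3% of CON1 and 2.01% to 10.8% of the other 7. CON1 and LDP8 were thus the highest libraries for Igll1 and Il7r and lay far apart for Rag1 and Dntt.

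The test of time in lymphoid cells set the 4 rats of 8 weeks against the 3 rats of 2 weeks with enough cells, with the libraries of a rat averaged. The 2-week rats entered by CON1, LDP3 and LDP4, rats 5 and 6 by both libraries, and rats 7 and 8 by LDP alone. Puncture and the separate clustering of the groups therefore cannot be told apart from time here. All rats were 8 weeks old at surgery, so time and age cannot be told apart in any comparison of times. None of 10312 genes passed by limma (0%), with 730 higher (7.08%) and 269 lower (2.61%) at an unadjusted p under 0.05 and no member among them, and edgeR called 3 genes with no member. Among the 8 genes Vpreb1 had the largest difference, 1.38 higher at 8 weeks (SE 0.81, adjusted p = 0.599 by limma). Leaving out a rat moved it between 0.62 and 2.28. The value was 0.64 for Rag1 (SE 0.70), 0.80 for Dntt (SE 0.78) and 0.61 for Il7r (SE 0.84), and -0.78 for Igll1 (SE 0.66, between -1.43 and -0.24 without a rat), -0.63 for Cecr2 (SE 0.35), -0.19 for Myb (SE 0.29) and -0.13 for Lef1 (SE 0.33), with adjusted p from 0.575 to 0.928 by limma. The direction of Rag1 was set by rat 1, without which it was -0.50, and those of Dntt and Il7r by rat 8, without which they were -0.01 and -0.11. At an unadjusted p under 0.05 by limma, Vpreb1, Cecr2 and Il7r were among 1801 of 10087 genes (17.9%) without rat 1, and these and Dntt among 1767 of 9964 genes (17.7%) with the LDP libraries only. No member passed after adjustment in these or the other alternatives run.

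LDP and CON both had at least 50 lymphoid cells only in rats 5 and 6, at 8 weeks. limma called 93 of 8772 genes (1.06%), 10 higher and 83 lower, and none of the 7 members tested. The count was 18 without the rat block, and 2 of 9739 genes when at least 20 cells were asked for, which added rat 7 with 33 cells in CON7. Vpreb1 was higher in LDP of both rats, 29.8 against 11.7 CPM in rat 5 and 65.8 against 15.9 CPM in rat 6, a difference of 1.63 (SE 0.50, adjusted p = 0.0936 by limma). Igll1 differed by 0.99 (SE 0.50, adjusted p = 0.647 by limma), Lef1 by 0.74 (SE 0.39, adjusted p = 0.679), Rag1 by -0.49 (SE 0.38, adjusted p = 0.849) and Cecr2 by -0.78 (SE 0.38, adjusted p = 0.616). The values for Myb and Il7r were -0.10 (SE 0.37) and 0.00 (SE 0.43). Il7r was lower in LDP of rat 5 and higher in LDP of rat 6, by the levels given above. With 2 pairs, limma takes much of an SE from other genes, so these SEs are not the spread of each gene. Dntt, at 0.962 CPM in CON6, was under the limit on low values. Without that limit its difference was 2.24 (adjusted p = 0.0344 by limma, with 91 of 12905 genes or 0.705% called), which came from rat 6 (41.5 against 0.962 CPM) since in rat 5 the levels were 32.1 and 30.9 CPM.

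Among the genes called in this comparison were genes of other cells. Of 5 tested disc and endothelial genes 4 were called and all were lower in LDP: Col2a1, the collagen of cartilage, was at 140 and 71.0 CPM in the lymphoid cells of CON5 and CON6 and 12.6 and 8.70 CPM in LDP5 and LDP6, and Comp, a matrix protein, was at 296 and 273 against 92.8 and 54.6 CPM. Of 4 erythroid genes 2 were called and lower, and the globin gene Hba-a2 was at 5944 and 1861 CPM in CON5 and CON6 and 2990 and 77.1 CPM in LDP5 and LDP6. These genes were named after their values were seen, and they rest on the fit in which 93 genes were called. The part of free RNA from disc and red cells in the differences of the members was not tested.

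Few lymphoid cells held more than 1 of Rag1, Dntt, Vpreb1 and Igll1. At 1000 UMIs a cell, at least 2 of the 4 were found in 5.49% of the cells of CON1 (exact 95% binomial interval 1.81 to 12.4), 3.63% of LDP3 (2.90 to 4.48) and 4.10% of LDP4 (3.0998 to 5.30). At 8 weeks the share was 3.33% in CON5 (2.05 to 5.10), 1.16% in CON6 (0.692 to 1.83), 3.79% in LDP5 (2.09 to 6.28), 4.28% in LDP6 (1.87 to 8.26), 5.55% in LDP7 (3.92 to 7.60) and 30.5% in LDP8 (24.0 to 37.6). LDP8 stood far above all others, and CON6 had the lowest share. At least 3 of the 4 were found in 10.2% of the cells of LDP8 and in 0% to 1.10% elsewhere. With all UMIs the shares of cells with at least 2 were 28.6% in CON1, 6.65% in LDP3, 8.82% in LDP4, 7.87% in CON5, 5.35% in CON6, 10.3% in LDP5, 15.2% in LDP6, 13.7% in LDP7 and 50.8% in LDP8. The step was largest in CON1, whose lymphoid cells had the highest median depth, 5296 UMIs against 1319 in LDP3. The intervals cover counting error only.

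**Figure D3:**
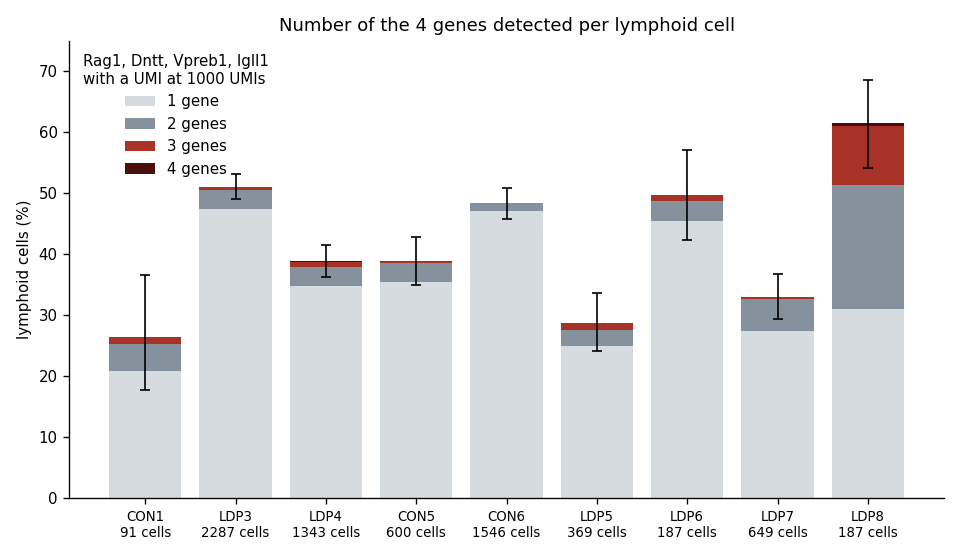
Share of lymphoid cells in which 1, 2, 3 or 4 of Rag1, Dntt, Vpreb1 and Igll1 were found, in percent of the cells kept after thinning to 1000 UMIs, in the 9 libraries with at least 50 lymphoid cells. Error bars are exact 95% binomial intervals of the share with at least 1 gene. LDP8 has 30.5% of its cells with at least 2 genes and every other library at most 5.55%.

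As a value per rat, the share of lymphoid cells with at least 2 of the 4 genes was 5.49%, 3.63% and 4.10% in rats 1, 3 and 4 and 3.56%, 2.72%, 5.55% and 30.5% in rats 5 to 8. The means were 4.41% ± 0.971 (SD, n = 3) at 2 weeks and 10.6% ± 13.3 (SD, n = 4) at 8 weeks, and the difference of 6.17 percentage points had p = 0.857 in a two-sided exact permutation test over 35 splits, which can reach 0.0286. Rat 8 alone made it positive: without it the difference was -0.462 points (exact permutation p = 0.6). The rats entered by the same libraries as in the test of time above. Puncture, age and the separate clustering cannot be told apart from time here either.

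Counted over all cells, which needs no class, at least 2 of the 4 genes were found at 1000 UMIs in 0.302% of the cells of CON1 and in none of CON2, CON3 and CON4, where 0 cells allow a share of up to 0.0780%, 0.0223% and 0.0227%. In LDP1 to LDP4 the shares were 0, 0.00643%, 0.699% and 0.472%. At 8 weeks they were 0.248%, 0.249%, 0 and 0 in CON5 to CON8 and 0.205%, 0.361%, 0.378% and 0.632% in LDP5 to LDP8, where the lowest LDP library lay under the highest 2 controls. The mean was 0.294% ± 0.349 in LDP and 0.0756% ± 0.151 in CON at 2 weeks (SD, n = 4, two-sided exact permutation p = 0.257), and 0.394% ± 0.177 and 0.124% ± 0.143 at 8 weeks (n = 4, exact permutation p = 0.0857). Leaving out a rat moved the difference between 0.0585 (without rat 3) and 0.392 percentage points (without rat 1) at 2 weeks, and between 0.149 (without rat 8) and 0.374 points (without rat 5) at 8 weeks. Sign flips within rats gave an exact p of 0.375 and 0.25, where 4 pairs cannot go below 0.125. Counting cells with at least 1 gene, turned the 8-week difference around, to -1.38 percentage points (LDP 2.37% ± 1.29, CON 3.75% ± 5.51, SD, n = 4, exact permutation p = 0.857).

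The pairs of the 4 genes differed in how often they were found together. Igll1 was found in 14 of the Dntt-positive lymphoid cells of LDP3, or 38.9%, against 5.51% of the Dntt-negative cells (odds ratio 11.01, with 0.5 added to each count). In LDP4 it was 40.7% against 5.62% (odds ratio 11.6), in LDP7 28.0% against 5.13% (odds ratio 7.39), and in LDP8, which had the most Dntt-positive cells, 28.9% against 16.8% (odds ratio 2.04). At 2000 UMIs the odds ratio was 2.49 in LDP3, 8.82 in LDP4, 4.11 in LDP7 and 1.07 in LDP8. Rag1 and Dntt had an odds ratio above 1 at 1000 UMIs in each of the 9 libraries, for example 2.25 in LDP3, 3.27 in LDP4, 3.66 in LDP5 and 2.95 in LDP8. For Rag1 and Vpreb1 at 1000 UMIs it was 0.238 in LDP3, 0.589 in LDP4, 0.440 in CON6, 0.628 in LDP6 and 0.417 in LDP7, 1 in CON5, 1.24 in LDP5 and 2.15 in LDP8, and in CON1 none of the 5 Rag1-positive cells held Vpreb1. With all UMIs it was above 1 in all 9, at 1.01 in LDP3, 1.57 in LDP4, 1.21 in CON6, 1.24 in LDP6 and 2.03 in LDP7. At 2000 UMIs it was below 1 only in LDP3 (0.391) and CON6 (0.562). Its direction thus varied with the depth and the cells kept, which cannot be told apart here. In LDP3, 2287 lymphoid cells were kept at 1000 UMIs and 608 at 2000 UMIs. For Rag1 and Igll1 at 1000 UMIs it was 0.867 in LDP3, 1.77 in LDP4, 0.481 in CON6, 2.32 in LDP7 and 2.28 in LDP8. These are descriptions of cells within a library, many of them rest on fewer than 10 cells with both genes, and cells of a library are not replicates.

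The balance of Rag1 against the other 3 genes was also read over all cells of a library, as the UMIs of Dntt, Vpreb1 and Igll1 together for each 100 UMIs of Rag1. It was 73.4 in CON1 (298 and 406 UMIs), 16.5 in LDP3 (1173 and 7118 UMIs) and 26.2 in LDP4 (562 and 2145 UMIs). At 8 weeks it was 24.9 in CON5, 3.84 in CON6 (190 and 4944 UMIs), 41.2 in LDP5, 24.1 in LDP6, 52.0 in LDP7 and 76.0 in LDP8 (381 and 501 UMIs). Among these 9 libraries the lowest values were those of CON6 and LDP3, the libraries with the most Rag1 UMIs. In both rats with enough of these UMIs in CON and LDP at 8 weeks, the value was higher in LDP, 41.2 against 24.9 in rat 5 and 24.1 against 3.84 in rat 6. The other 7 libraries held only 5 to 44 Rag1 UMIs each, with values of 0 to 48.8. This measure was chosen after the values were seen and has no test, and a ratio of UMIs of different genes is compared here only between libraries.

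**Figure D4:**
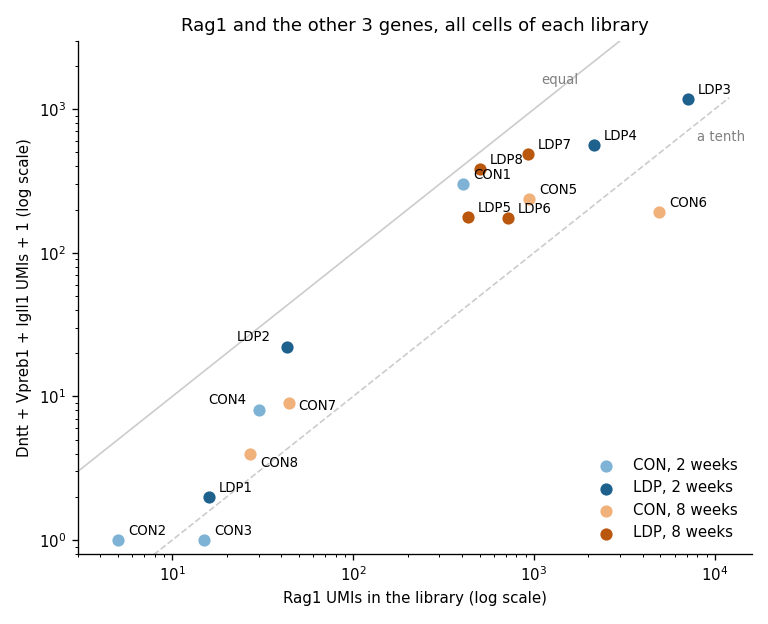
UMIs of Rag1 (x axis, log scale) against UMIs of Dntt, Vpreb1 and Igll1 together plus 1 (y axis, log scale), summed over all cells of each of the 16 libraries. The solid line marks equal counts and the dashed line a 10-fold excess of Rag1. CON6 lies under the dashed line, at 190 against 4944 UMIs, and LDP8 lies nearest the solid line among the libraries with at least 406 Rag1 UMIs, at 381 against 501.

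Lymphoid cells with Rag1 alone and cells with Rag1 and at least 1 of the other 3 genes differed in further genes that the split did not use. The split and the genes named here were chosen after values were seen. The shares are descriptions at 1000 UMIs in the 4 LDP libraries with the most cells holding Rag1 and another gene. For Rag1 alone, LDP5 (83 cells) and LDP6 (76 cells) held more than LDP8. LDP3, LDP4, LDP7 and LDP8 held 997, 411, 142 and 35 cells with Rag1 alone and 74, 50, 28 and 48 cells with Rag1 and another gene. Il7r, the interleukin 7 receptor gene of the earlier stages, was found in 2.81%, 1.95%, 7.75% and 40% of the former and in 16.2%, 16%, 39.3% and 43.8% of the latter. Erg was found in 1.71%, 2.43%, 0.704% and 8.57% against 16.2%, 12.0%, 17.9% and 20.8%. Both were more frequent beside a second gene in each of the 4 libraries, with a small step for Il7r in LDP8.

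Irf4 and Cd74 went the other way. Irf4, a transcription factor that acts in light chain rearrangement and in mature B cells, was found in 29.6%, 26.03%, 18.3% and 8.57% of the cells with Rag1 alone and in 6.76%, 12.0%, 0% and 4.17% of those with another gene, where 0 of 28 cells in LDP7 allows up to 10.7%. Cd74 was found in 45.4%, 51.3%, 37.3% and 25.7% against 9.46%, 20%, 10.7% and 18.8%. Both were less frequent beside a second gene in each of the 4 libraries. In CON6, which is not among them, Irf4 went the opposite way. It was found there in 57.1% of the 14 cells with another gene and 30.8% of the 702 with Rag1 alone. Cd74 did not, at 14.3% against 40.7%. Cecr2 was found in 72.7%, 51.6%, 43.0% and 20% of the cells with Rag1 alone and in 39.2%, 26%, 10.7% and 20.8% of those with another gene, so that it was lower in LDP3, LDP4 and LDP7 but not in LDP8.

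**Figure D5:**
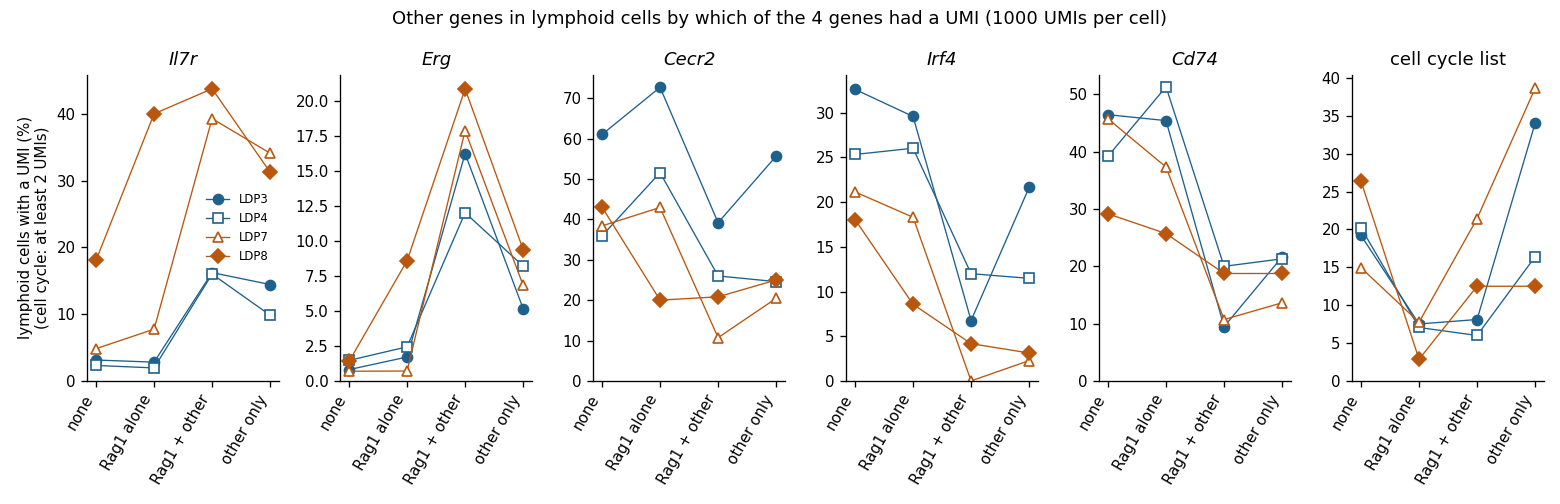
Percent of lymphoid cells with a UMI of Il7r, Erg, Cecr2, Irf4 or Cd74, and with at least 2 UMIs of the cell cycle list, in cells with Rag1 alone, Rag1 with another of the 4 genes, another gene without Rag1, and none of the 4, at 1000 UMIs a cell in LDP3, LDP4, LDP7 and LDP8. Irf4 and Cd74 are highest in cells with Rag1 alone or with none, and Il7r and Erg in cells with Rag1 and another gene, in each of the 4 libraries.

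Cell cycle genes were found least often in cells with Rag1, with LDP7 and LDP8 as exceptions for the cells with Rag1 and another gene. At least 2 UMIs of the cell cycle list were found in 7.52%, 7.06%, 7.75% and 2.86% of the cells with Rag1 alone in LDP3, LDP4, LDP7 and LDP8, in 8.11%, 6.00%, 21.4% and 12.5% of those with Rag1 and another gene, and in 34.0%, 16.4%, 38.6% and 12.5% of the 97, 61, 44 and 32 cells with another gene but no Rag1. In cells with none of the 4 genes it was 19.2%, 20.2%, 14.9% and 26.4%. CON6 had another makeup. There the 31 cells with Dntt, Vpreb1 or Igll1 but no Rag1 held at least 2 cell cycle UMIs in 48.4% and Irf4 in 61.3%, and Il7r in none, which allows a share of up to 9.68%.

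The authors' own subclusters of the immune cells, deposited for the LDP libraries of 2 weeks, differed in the same genes. In LDP3 subcluster 1 held 2297 lymphoid cells with mean levels of 1765 CPM for Rag1, 10.3 for Dntt, 40.2 for Igll1, 15.3 for Il7r, 1480 for Cd74 and 94.6 CPM for Mki67. Subcluster 2 held 484 cells with 597 CPM for Rag1, 74.3 for Dntt, 196 for Igll1, 140 for Il7r, 435 for Cd74 and 1049 CPM for Mki67. In LDP4 the same subclusters held 1048 and 358 cells, with Rag1 at 800 and 369, Dntt at 8.55 and 49.4, Igll1 at 35.6 and 149, Il7r at 15.2 and 80.2, Cd74 at 1191 and 499 and Mki67 at 85.5 and 424 CPM. In LDP2, with 16 and 9 such cells, Rag1 was at 355 and 422 and Mki67 at 133 and 59.1 CPM, the other way round, and Dntt at 0 and 140 and Igll1 at 0 and 132 CPM. Rats 3 and 4 thus showed the same pattern, and rat 2, with few cells, only part of it. The cells of subcluster 2 were also deeper, with a median of 3122 against 1216 UMIs in LDP3 and 3971 against 1593 in LDP4. The clusters were drawn from these genes among others, so no test was made.

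Over the 16 libraries, the genes whose log2(mean CPM + 1) was most like the mean of Rag1, Dntt, Vpreb1 and Igll1 were, of 13592 genes, Arpp21 (r = 0.972), Myb (0.970), Cyfip2 (0.964), Cd79b (0.963), Pkib (0.962), Cdca7 (0.961), Lef1 (0.958), Blnk (0.957), Sash3 (0.952) and Pou2af1 (0.952). Myb and Lef1 are members and Cd79b, Blnk and Pou2af1 are B lineage genes. Cecr2 had rank 28 (r = 0.933) and Il7r rank 243 (r = 0.836). The points share rats and differ in their number of lymphoid cells, and the correlations describe these 16 libraries only.

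Within lymphoid cells the order was another. In the 5 libraries with at least 20 cells on either side (LDP3, LDP4, CON5, LDP7 and LDP8), the mean level in cells with at least 2 of the 4 genes was set against that in cells with none. Besides the 4 genes themselves, the log2 ratio was highest for Ifi47 (4.38), Erg (4.15), Fjx1 (4.08), Dab2ip (3.47), Dyrk3 (3.39), Ifit2 (3.38), Scml4 (3.37), Rdh12 (3.26), Mgst2 (3.26) and Impdh1 (3.23). Of the members, Il7r was at 2.42 and Lef1 at 0.90, above 0 in 5 of 5 libraries each, Myb was at 0.02, above 0 in 3 of 5, and Cecr2 was at -1.16, above 0 in none of the 5. Cecr2 thus went with the mean of the 4 genes across libraries but was lower in the cells that held at least 2 of them. The cells with at least 2 genes numbered 20 to 83 in a library, and these ratios have no test. Genes entered at 20 CPM or more in either set of cells. Each gene from Ifi47 to Impdh1 was at 2.91 to 16.9 CPM in cells with none. It therefore entered only through the cells where it was high. Levels such as 36.7 CPM for Ifit2 rest on few UMIs. The ratio ranged over the libraries from 0.68 to 6.73 for Dab2ip, 0.57 to 6.15 for Impdh1 and 2.71 to 4.76 for Erg. The order is thus uncertain.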

How the data were processed

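Cells of 16 libraries (10x 3′ v3.1 chemistry) were sequenced and processed by the authors in Partek Flow (version not given in the sources used here), with build rn6 in the submitters' processing notes. The authors kept cells with under 10% mitochondrial reads and within their limits on genes and UMIs, and deposited a log2(CPM + 1) value per gene and cell, with the cell's total as an estimated count and the cluster names. No step against doublets or free RNA is stated in the sources used here, and none was added. UMIs were recovered from the values: 99.4% of the tested values came out whole within 0.02, and 100% of those of the 8 genes.

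Mean CPM per library was tested as log2(mean CPM + 1) with limma 3.58.1 (R 4.3.3), with trend and the rat as a block, over genes at 1 CPM or more in at least 4 libraries, with Benjamini-Hochberg adjustment. edgeR 4.0.16 and DESeq2 1.42.0 on summed recovered UMIs, other pseudocounts and limits, and leaving out each rat were the alternatives, and 1 marker gene and an alternative that rests on it are not reported here. Shares of lymphoid cells were compared per rat and shares of all cells per library, both by exact permutation. The binomial intervals were made with scipy 1.17.1. The upper limit given for a share of 0 is 3 cells of those counted, which is lower than the limit of an exact two-sided interval. Thinning drew 1000 UMIs from each cell without replacement, and shallower cells were left out, so that 2287 of 2781 lymphoid cells were kept in LDP3. The whole-library fits were tested for the 2-week contrast, limma on simulated log2 values and edgeR and DESeq2 on simulated counts. At a log2 change of 1, they recovered 75.5%, 71% and 69% of the changed genes, which were drawn from well-detected genes. False calls numbered 8, 8 and 29 there, and 13, 8 and 38 at a log2 change of 2. Dntt, Vpreb1, Igll1, Lef1 and Il7r had lower mean levels than the genes drawn from, so these rates do not measure recovery for them. The lymphoid fits were not tested in this way. The pairing rests on the shared animal, and the CON and LDP deviations of rats 1 to 8 correlated at -0.586, 0.277, -0.192, -0.261, 0.0891, 0.413, -0.114 and 0.611. Each library is a different rat or disc pool. With the rat as a block, p-values of LDP against CON rest on the spread of the LDP minus CON difference from rat to rat. In the whole-library fits this spread was pooled over both times, and limma drew it toward that of genes of similar level. With only 2 pairs in the lymphoid fit, it is not the spread of the gene itself. P-values for time measure the spread between rats. The permutation of LDP against CON ignored the pairing and measures the spread between libraries. The genes named are the 8 members, the first 4 listed genes of the lists of cell type markers, and the genes most like the members by library and by cell. The 8 genes and the lists were chosen with earlier results of these data known, and what was chosen after values were seen is marked in the text.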

Additional observations from a re-analysis of the deposited data

Results flagged for a closer look

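Of 46 groups of 4 samples tested for a value far from the others by Dixon's ratio, 11 had one, where chance gives about 1 in 20. Of these, 7 are the library CON1, which lay far above CON2, CON3 and CON4 on the log2(mean CPM over all cells + 1) scale, at 4.46 for Rag1, 2.01 for Dntt, 1.35 for Vpreb1, 2.43 for Igll1, 2.46 for Lef1, 3.84 for Myb and 4.73 for Cecr2. The 8 genes share this library, so these are not separate events. CON1 also stood apart in the share of all its cells with at least 2 of Rag1, Dntt, Vpreb1 and Igll1, at 0.302% against none in the other 3 controls of 2 weeks. With the other 3 at 0, any share above 0 would have been flagged.

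In LDP8 the share of lymphoid cells with at least 2 of the 4 genes was 30.5%, far above the other 3 LDP libraries of 8 weeks, and the same value made rat 8 stand apart from rats 5 to 7 when shares were averaged per rat (30.5%). The mean level of Myb in the lymphoid cells of LDP5 was 7.94 on the log2 scale, below the other 3 LDP libraries of that time.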

How the results depend on the processing

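For the whole-library differences of the 8 genes between LDP and CON, 116 of 120 alternative values at 2 weeks and 118 of 120 at 8 weeks kept their direction and their side of the threshold. Many of these alternatives could not change the direction. Leaving out a rat of the other time, the rat block or the low-value limit left the medians of the 8 genes at 1.54 and 0.98. These tallies are therefore no measure of how stable the differences are. The count of genes called by limma was 0 at 2 weeks, with 140 genes and 1 member called by DESeq2 (Igll1), and 1 at 8 weeks, with 209 by DESeq2, 4 by edgeR with RLE size factors, 2 by edgeR with TMM and 3 without the rat block. Without the replicate block, as with it, no member was called. Leaving out a rat gave 0 to 1 called genes at either time, values of -0.073 to 1.45 for Dntt and -0.37 to 1.19 for Il7r at 2 weeks, and of -0.44 to 1.16 for Cecr2 at 8 weeks.

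For the change of the difference from 2 to 8 weeks, DESeq2 turned Dntt to -0.81 and Vpreb1 to -0.88, edgeR turned Vpreb1 to -0.46 (RLE) and -0.48 (TMM), and a pseudocount of 0.1 CPM turned Igll1 to 0.20. Leaving out a rat gave -4.003 to 0.042 for Rag1, -1.26 to 0.92 for Igll1, -2.25 to 0.23 for Lef1, -2.95 to 0.55 for Myb and -0.37 to 1.24 for Il7r.

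In lymphoid cells, 8 against 2 weeks, the count of called genes (0) was 6 with LDP libraries only, 3 with at least 20 cells, 23 with at least 200 cells, 3 by edgeR, 2 with a pseudocount of 5 CPM and 0 to 5 without a rat. LDP libraries alone turned Rag1 to -0.62, Lef1 to 0.036 and Myb to 0.019, and at least 200 cells turned Rag1 to -0.66 and Dntt to -0.52. At least 20 cells turned Lef1 to 0.11, and edgeR turned Rag1 to -0.12. Leaving out a rat gave -0.50 to 1.502 for Rag1, -0.0062 to 1.54 for Dntt, -0.11 to 1.61 for Il7r, -0.41 to 0.080 for Lef1, 0.62 to 2.28 for Vpreb1, -1.43 to -0.24 for Igll1 and -0.55 to 0.043 for Myb. For LDP against CON at 8 weeks, the 93 called genes became 2 with at least 20 cells and 18 without the replicate block, and without a low-value limit 1 member (Dntt) was called. At least 20 cells turned Myb to 0.36 and Il7r to 0.31. A limit of 200 cells, or leaving out rat 5 or rat 6, left fewer than 2 pairs and was not run.

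The difference in the share of lymphoid cells with at least 2 of the 4 genes ranged from -0.462 to 8.79 percentage points without a rat. Over all cells the paired sign flips (the replicate block) changed no call, and at least 1 gene turned the 8-week difference to -1.38. The cause of these changes was not tested. Dntt, Vpreb1 and Igll1 rest on few UMIs, with 0 in some controls, so their levels there are not detectable at this depth, and shares at 1000 UMIs leave out shallower cells and the further UMIs of deeper ones.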
